A study of Mus musculus with 6 samples.

Results

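Pomc encodes proopiomelanocortin, and its row was followed through 6 tables of single hypothalamic cells, as 1 of the 26599 gene names that all 6 tables list. In mouse assembly GRCm38 the gene (ENSMUSG00000020660 in the GENCODE M21 annotation) lies on the plus strand of chromosome 12, from 3954951 to 3960642. Red fluorescent cells were sorted from hypothalami of C57BL/6 mice that carry a DsRed reporter driven by Pomc sequences (POMCDsRed/+ by POMCDsRed/+ matings), dissociated with papain and measured with 10x Genomics droplets. Ages ran from E11.5 to E17.5 in steps of 2 days, followed by P5 and P12, with 1 library for each age from a pool of at least 6 animals, so that no value below carries a spread between animals and no test was made. Values given by age follow this order, from E11.5 to P12. The younger postnatal library is P5 by its title and P6 by its protocol.

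All groups share the transgene and the sort. Digestion took 20 min at E11.5 and E13.5, 30 min at E15.5, 40 min at E17.5 and 1 h at P5 and P12. Version 2 reagents were used for the 4 embryonic libraries and version 3 for the 2 postnatal ones, so age and reagent cannot be told apart between E17.5 and P5. The 13953 deposited cells had been kept for at least 1 Pomc UMI (unique molecular identifier, a count of captured transcripts), and no cell without a Pomc UMI was found in the tables. Medians per cell ranged from 8047 UMIs at E17.5 to 18925 at P5. Pairs of libraries shared at most 5 cell barcodes, and 17 in all over 15 pairs.

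The proopiomelanocortin precursor is cut by prohormone convertases into melanocortins such as α-MSH and into β-endorphin. Neurons of the arcuate nucleus that make it restrain feeding through melanocortin receptors, and their identity rests on transcription factors that include Isl1, Nkx2-1 and Prdm12. In the embryo the gene is switched on early, also in precursors that later take on other peptide identities.

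The 250 bases upstream of the RefSeq start of Pomc are shown because the factors named here include homeodomain proteins. They span chr12:3954695-3954944 on the plus strand of GRCm38.p6, and capitals mark TAATTA, a core that many homeodomain proteins bind, and TATAAA, the TATA box letters.
Pomc upstream: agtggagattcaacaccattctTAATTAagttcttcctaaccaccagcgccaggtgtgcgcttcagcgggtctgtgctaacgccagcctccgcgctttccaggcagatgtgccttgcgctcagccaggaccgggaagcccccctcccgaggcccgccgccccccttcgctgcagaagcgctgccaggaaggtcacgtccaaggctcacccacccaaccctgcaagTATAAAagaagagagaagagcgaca
TAATTA began 228 bases before the start and TATAAA 25 bases before it. Searched on both strands, TAATTA was found in 4.84% and TATAAA in 12.4% of the 32851 upstream windows of equal length in the same table. The E-box letters CANNTG occurred at 2 places, and 66.2% of all windows held at least 1 such match. These matches describe letters and not occupied sites.

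Pomc counts were spread over a very wide range within each library. Of 10756 cells in the neuron class, which rests on summed neuronal marker genes without Pomc, the median cell held 3, 1, 2, 2, 10 and 45 Pomc UMIs by age. The highest cell held 340, 382, 392, 93, 430 and 539 UMIs in the same order. The tenth of neuron class cells with the most Pomc held 61.9% of all Pomc UMIs at E15.5 and 35.3% at P12, the highest and lowest shares. Most transcripts of the gene thus came from a minority of the cells in the 4 embryonic libraries, where this share was never below 50.6%.

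Because each cell had to show at least 1 Pomc UMI, the plain mean level is too high, above all for cells near the limit. The level was therefore corrected by counting cells with exactly 1 Pomc UMI as 0, and is expressed as Pomc UMIs per 10000 UMIs of all other genes. Under Poisson counting this gives an unbiased mean rate of the kept cells. Sorted cells with 0 Pomc UMIs stay left out, so the level is no mean over all sorted cells. In the neuron class it was 12.5, 10.75, 12.7, 8.60, 21.5 and 27.4 by age. Without the correction the values were 12.7, 11.3, 13.1, 9.18, 21.6 and 27.6, so the correction removed most at E17.5, the library with the shallowest cells. In order of level among kept neurons, E17.5 was lowest and was followed by E13.5, E11.5, E15.5, P5 and P12. The E11.5 and E15.5 libraries cannot be ordered, since without neurons that also carried microglia or VLMC markers their values were 12.6 and 12.4. Nor can E13.5 be placed below E11.5, since summed UMIs over summed depth gave 13.3 at E13.5 and 12.6 at E11.5.

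**Figure D1:**
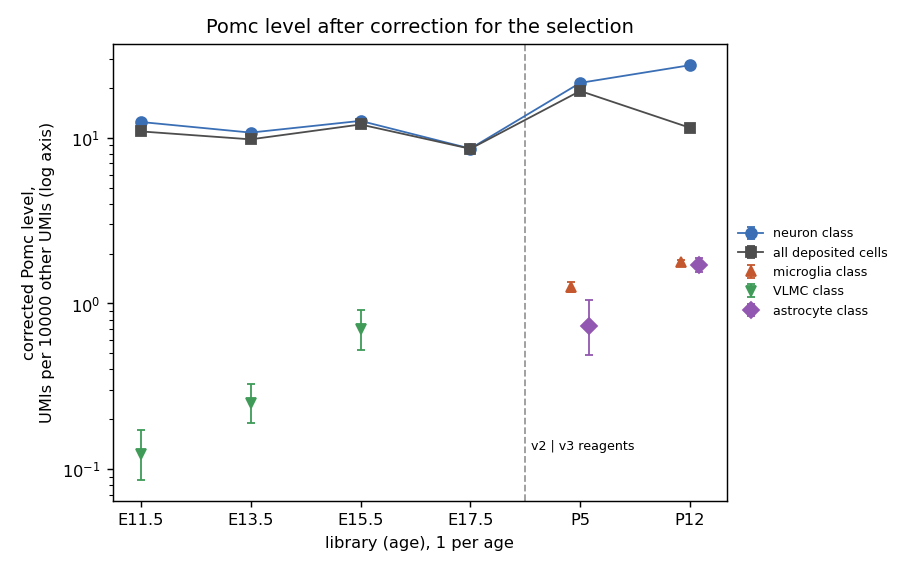
Corrected Pomc level (log axis, Pomc UMIs per 10000 other UMIs) by library, 1 library for each age, with exact 95% Poisson intervals that cover counting error only and are mostly smaller than the symbols; classes other than neurons are drawn where they held at least 30 cells. Neuron class values stand at 8.60 to 27.4, whereas the microglia, VLMC and astrocyte classes lie between 0.124 and 1.77, and all deposited cells fall to 11.49 at P12, where the microglia class held more cells than the neuron class.

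Over all deposited cells the corrected level was 10.9, 9.79, 12.0, 8.58, 19.2 and 11.49 by age. P12 thus stood above P5 among neurons and below it among all cells. Its makeup differed, with 1283 neuron class and 1874 microglia class cells at P12 against 3428 and 382 at P5. These cells had been sorted for the reporter and kept for a Pomc UMI, so their numbers are no measure of the tissue. Of the P12 neurons, 814 also held at least 3 UMIs of microglia or VLMC markers, and without them the level was 26.5.

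Pomc in cells that should not make it gives the background. VLMC (vascular and leptomeningeal) class cells had corrected levels of 0.124 (n = 137 cells), 0.252 (n = 140) and 0.699 (n = 63) in the first 3 libraries. Their median depth, 12040 to 19247 UMIs, was above that of the neurons beside them, 10620 to 16831. In the microglia class it was 1.26 at P5 (n = 382) and 1.77 at P12 (n = 1874), and in the astrocyte class 0.732 (n = 46) and 1.70 (n = 280). Postnatal microglia class cells were shallower than neurons, with medians of 10670.5 and 10540 UMIs against 20292 and 30142. E17.5 had too few such cells for a value. Without the 9 microglia class cells at P5 and the 39 at P12 that held 10 or more Pomc UMIs, the levels were 0.557 and 1.15. At least 3 Pomc UMIs were held by 9.16% of microglia class cells at P5 and 17.4% at P12. In the astrocyte class the shares were 2.17% and 18.2%, and in the VLMC class of the first 3 libraries 1.46%, 1.43% and 6.35%. Neuron class levels were thus many times the background in each library where both could be measured. A single cell with 1 or 2 Pomc UMIs cannot be told from the background, and a count of 3 or more does not by itself place a cell above it.

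Neurons with few Pomc UMIs were common. Exactly 1 Pomc UMI was held by 39.7%, 51.1%, 43.2%, 39.0%, 22.7% and 15.8% of neuron class cells by age. In the VLMC class the share was 88.3%, 86.4% and 81.0% at the first 3 ages, and in the microglia class 72.3% at P5 and 58.9% at P12. The ratio of cells with 1 and with 2 UMIs sets a lower limit on neurons of the same kind that were sorted but held 0 Pomc UMIs, again under Poisson counting. That limit was 1170 cells, 2182, 1286, 574, 778 and 161 by age. Such neurons are left out of the corrected levels, which rest on 1312, 1629, 1968, 1136, 3428 and 1283 kept neurons.

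The distribution of the uncorrected level in neurons had a low and a high part. A level under 5 was found in 56.25%, 67.0%, 66.8%, 59.6%, 47.9% and 39.2% of neuron class cells by age. Above 20 were 24.8% (exact 95% binomial interval 22.5 to 27.2%), 19.0% (17.2 to 21.0%), 20.0% (18.2 to 21.8%), 14.1% (12.1 to 16.2%), 36.9% (35.3 to 38.5%) and 45.1% (42.3 to 47.8%) in the same order. The limits of 5 and 20 cut a continuous range: 35 to 126 cells of each library lay between 4 and 6, and 75 to 168 between 16 and 24. The cells above 20 held 79.3% of Pomc UMIs at E11.5, 59.0% at E17.5 and 90.6% at P5. E17.5 also had the largest middle part, with 26.3% of its neurons from 5 to 20 against 13.2 to 19.0% in the other libraries.

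**Figure D2:**
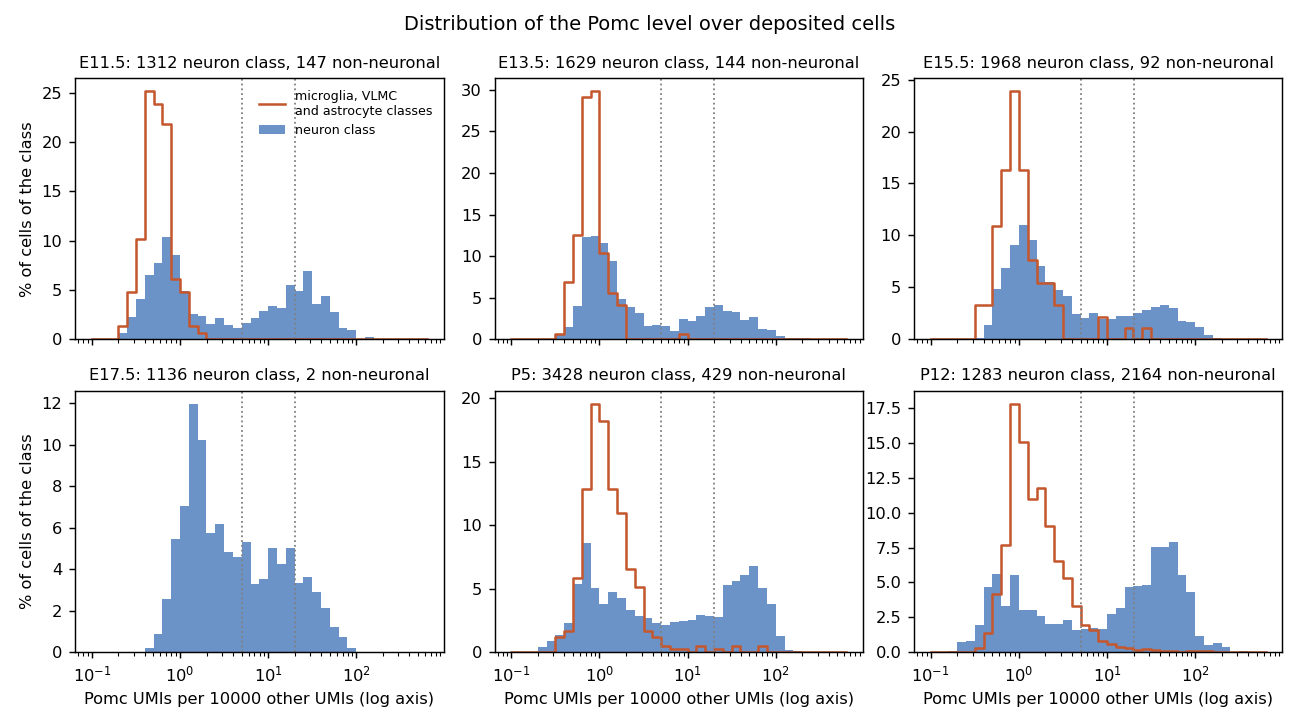
Share of cells (vertical axis, %) by Pomc level (log axis, Pomc UMIs per 10000 other UMIs) in the neuron class (bars) and in the microglia, VLMC and astrocyte classes together (line, drawn where at least 10 cells), 1 panel for each library, with dotted lines at 5 and 20. A low peak and a second, high peak with fewer cells between them are seen in every library. Levels are not corrected, and no cell can lie below the worth of 1 UMI at its depth. The selection and depth thus set the left side of the low peak. At E17.5 the dip is shallow, with 37 neurons in its lowest bin and 57 in the highest bin above it. There 26.3% of neurons lie from 5 to 20.

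A mixture of Poisson rates fitted to the counts with the selection written into the likelihood gave means of 12.5, 10.8, 12.6, 8.61, 21.4 and 27.4, close to the corrected levels. It placed 48.9%, 56.5%, 47.7%, 41.6%, 31.0% and 30.4% of neurons by age at rates under 1 per 10000, a value that overlaps the background. Over 20 it placed 24.3%, 19.3%, 21.0%, 14.1%, 36.2% and 46.5%, within 2 percentage points of the direct shares. In the microglia class at P12 a single Poisson rate with the same selection would give 26.0% of cells with 1 UMI, and 58.9% were found.

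Depth and Pomc moved together in ways that differed between libraries. Neurons of each library were ranked by depth and divided into 5 groups of equal size. At E13.5 the corrected level was 3.30 in the shallowest group (median 7310 UMIs), 6.54, 7.74 and 14.6 in the next ones, and 21.6 in the deepest (median 21140.5 UMIs). At P5 it was 6.94 and 8.78 in the 2 shallowest groups, then 27.7, 36.1 and 27.7. The deepest group was not the highest at E11.5, with 11.6 against 16.2 in the fourth, nor at P12, with 22.9 against 38.0 in the third. The corrected level is already per UMI, and the part of cell type or size in these values was not tested.

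At P12 the highest levels were in shallow cells. The 20 neuron class cells with the most Pomc per UMI had 129 to 355 Pomc UMIs per 10000, a median depth of 7504.5 UMIs against 30142 in the class, and 14 of them were under 10000. Their median mitochondrial share was 8.43% against 6.55%, and their median share of ribosomal protein transcripts 2.22% against 8.20%. In neurons with a mitochondrial share of at most 7% the corrected level at P12 was 23.7 in place of 27.4, still the highest of the 6 libraries. At P5 the 20 highest cells had a median depth of 21322 UMIs, near the 20292 of the class. Cells with at least 10 UMIs of pituitary marker genes numbered 3 at P5 and 3 at P12 and none at the other ages, and 1 of them was among the 20 highest at P12.

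To find what accompanied the Pomc level, each neuron was reduced at random to 4000 UMIs other than Pomc, and its Pomc count by the same factor. For each gene detected in 5 to 95% of these cells, the probability was computed that a cell with a UMI of the gene had a higher Pomc count than a cell without it. Pairs of cells with equal Pomc counts were counted as 0.5, so that ties bring a value nearer to 0.5. A value of 0.5 means no relation, and genes at 0.6 or higher and at 0.4 or lower were counted. Of 7169 genes at E11.5, 236 (3.29%) were at 0.6 or higher and 309 (4.31%) at 0.4 or lower. Of 7314 at E13.5, these were 133 (1.82%) and 181 (2.47%), and of 7267 at E15.5, 48 (0.661%) and 45 (0.619%). Of 7333 at E17.5 they were 53 (0.723%) and 42 (0.573%), of 7801 at P5 107 (1.37%) and 133 (1.70%), and of 8263 at P12 126 (1.52%) and 252 (3.05%). Together these were 545, 314, 93, 95, 240 and 378 genes by age. The order depends on the cells and genes admitted. P12 exceeded E11.5 with 344 against 302 in neurons of at least 2 Pomc UMIs, with 602 against 558 in neurons without other markers, and with 1918 against 656 in all cells. With genes in at least 1% of cells, E17.5 had 684 and P5 642.

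Averaged over the 6 libraries, 26 of 5677 genes (0.458%) were at 0.6 or higher and 17 (0.299%) at 0.4 or lower. Of the 26, 21 were above 0.5 in each library, and of the 17, 16 were below 0.5 in each. On each side, 3 genes passed the limit in all 6 libraries. Prdm12 (0.69 to 0.76), Isl1 (0.60 to 0.80) and Calb1 (0.61 to 0.78) were high in each, and Chst2 (0.29 to 0.39), Tle1 (0.28 to 0.40) and Lmo4 (0.29 to 0.39) were low in each.

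**Figure D3:**
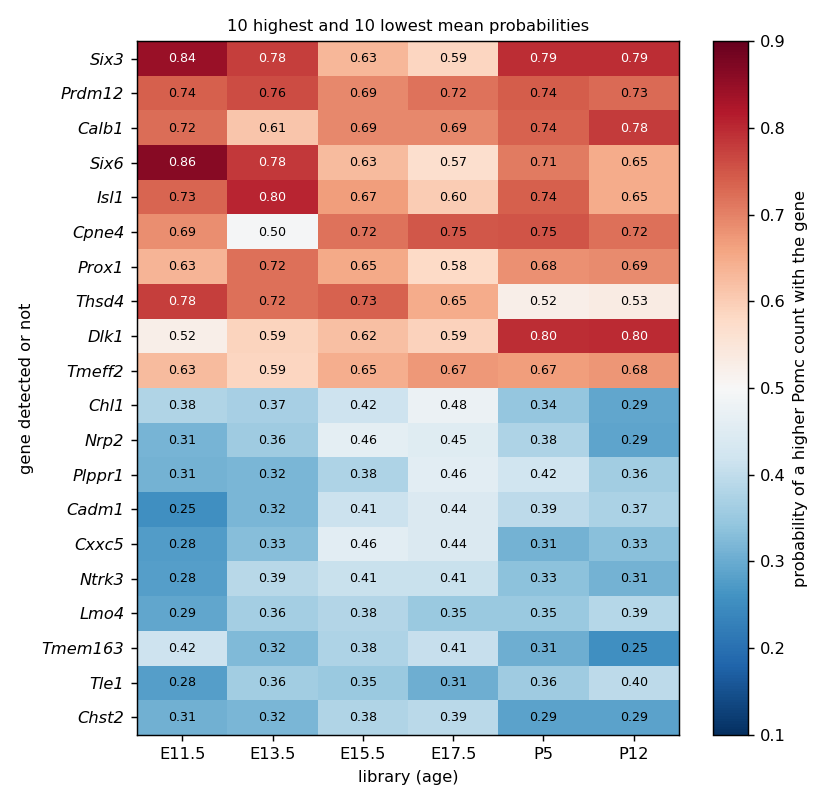
Probability (colour and printed value, 0.5 is no relation) that a neuron with a UMI of the gene (rows) has a higher thinned Pomc count than a neuron without it, in each library (columns), for the 10 highest and the 10 lowest mean values. Pairs of neurons with equal counts add 0.5. Six3, Prdm12, Calb1, Six6 and Isl1 lead the upper rows, and Chst2 and Tle1 are lowest. Values lie nearest to 0.5 at E15.5 and E17.5 for Six3 and Six6.

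Transcription factors were the clearest group at the top. Prdm12, a zinc finger factor that Pomc expression requires, was detected in 9.49 to 17.51% of neurons. The thinned Pomc level, which is not corrected for the selection, was 23.2 per 10000 with and 10.4 without a Prdm12 UMI at E11.5. In the next 3 libraries these pairs were 24.7 and 8.63, 28.4 and 10.2, and 20.2 and 8.11, and after birth 39.6 and 18.8, and 44.6 and 24.8. Cells with Prdm12 were higher in each library, with probabilities of 0.69 to 0.76. Isl1, a LIM homeodomain factor also needed for Pomc, divided E13.5 cells into 22.1 with and 3.75 without it, but E17.5 cells into 11.7 and 6.29. Six3 and Six6, homeodomain factors of the ventral forebrain, had their highest probabilities at E11.5 (0.84 and 0.86) and their lowest at E17.5 (0.59 and 0.57).

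Nkx2-1, the homeodomain factor of the ventral hypothalamus, followed the age. Its probability was 0.88, 0.79, 0.62, 0.56, 0.48 and 0.54 by age. At E11.5 cells with Nkx2-1 had a level of 22.9 against 3.23 without, and at P5 20.2 against 23.0. Tbx3, a T-box factor of arcuate neurons, was found in 3.35% of E11.5 neurons, too few for a value. It was found in 64.1% at P12, and its probability was 0.77 at E13.5 and 0.56 to 0.64 later.

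Of the 18 listed factors tied to Pomc or its lineage, 12 to 14 could be ranked in a library. At 0.6 or higher were 11 of 13, 11 of 14, 6 of 14, 3 of 12, 5 of 13 and 8 of 13 by age, and none was at 0.4 or lower in any library. Over all ranked genes 0.661 to 3.29% were at 0.6 or higher in a library, and 0.573 to 4.31% at 0.4 or lower. Medians of the list were 0.74, 0.72, 0.59, 0.57, 0.58 and 0.61, with medians of all ranked genes of 0.49 to 0.50. Nr5a1 and Nr0b1, nuclear receptors of ventromedial and gonadal lineages, and Shh stood at 0.76, 0.75 and 0.70 at E11.5. Nr5a1 was at 0.59 by E15.5, and none of these was detected in enough cells from E17.5 on. Nr4a1, an immediate early nuclear receptor, reached 5% detection only after birth, with 0.61 at both P5 and P12. Part of the list has a known link to Pomc. Six3, Six6, Sox1, Sox2, Sox3, Nr5a1, Nr0b1 and Shh were reported by the study in its cluster with the most Pomc, from these same libraries. The list is thus not independent of Pomc, and its high values are no independent support.

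The number of factors in a cell was read together with Pomc. Of Isl1, Nkx2-1, Prdm12, Six3, Six6 and Tbx3, none was detected at 4000 UMIs in 363 E11.5 neurons, and all 363 were under 5 Pomc UMIs per 10000. With 1 factor the corrected level at E11.5 was 1.16, with 2 it was 14.1, with 3 it was 21.4, and with 4 or more 25.8. At E13.5 the same steps gave 0.319 without any factor, then 3.03, 11.46, 17.6 and 24.9965. P5 had 1.58, 6.84, 15.4, 29.5 and 37.8, and P12 had 4.58, 13.1, 22.9, 37.1 and 44.1. The level was higher at each step in each of the 6 libraries. All 6 factors belong to the list tied to Pomc, and Six3 and Six6 come from the study's results in these libraries. A rise with their number is therefore no independent support.

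The steps were not closed. Of the cells with 4 or more factors, 13.0%, 28.5%, 43.0%, 40.8%, 15.1% and 5.86% by age were under 5 Pomc UMIs per 10000. In the E15.5 and E17.5 libraries a large share of neurons with the factors thus held little Pomc. Without any factor, cells above 20 were 0 of 363 at E11.5, which allows a share of up to 0.826%, and 5 of 124 (4.03%) at P12.

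**Figure D4:**
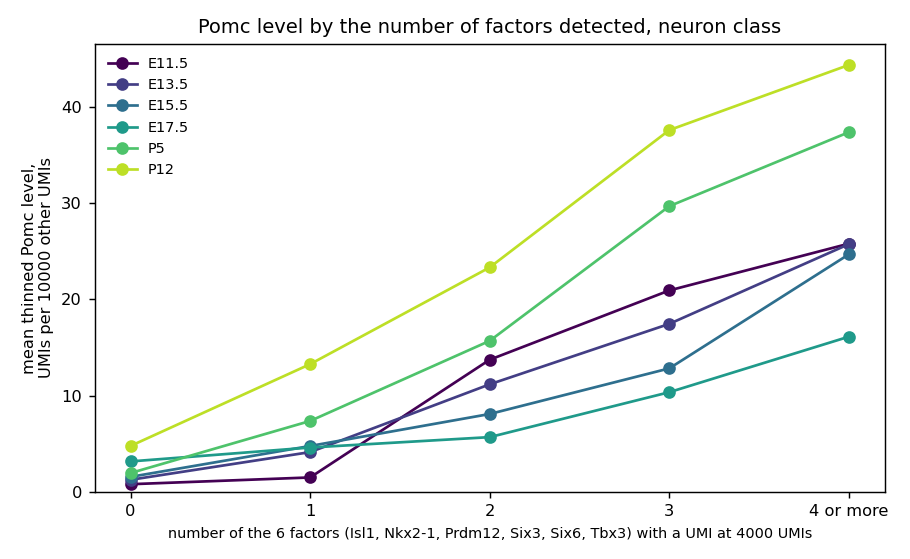
Mean thinned Pomc level (vertical axis, UMIs per 10000 other UMIs, not corrected for the selection) of neuron class cells by the number of 6 factors with a UMI after thinning to 4000 UMIs (horizontal axis), 1 line for each library. All 6 lines climb at each step, from 0.778 to 4.76 with no factor to 16.1 to 44.4 with 4 or more, and E17.5 is lowest at the right end. The 6 factors belong to the list tied to Pomc, so the climb is no independent support.

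Factors listed under other lineages mostly stood on the opposite side. Ranked members at 0.4 or lower were 7 of 11, 9 of 13, 8 of 12, 3 of 3, 3 of 3 and 4 of 4 by age. Over all ranked genes this share was 0.573 to 4.31% in a library. Members at 0.6 or higher were Sox14 and Foxp2 at E11.5 and Sox14 at E13.5, where 3.29% and 1.82% of all ranked genes stood. Ebf1, an early B cell factor, had the lowest probability of all genes at E11.5, 0.12. The Pomc level was 2.57 in 649 cells with it and 22.3 in cells without it. The study names a cluster of medium Pomc by Ebf1 and describes it as an early kind of neuron that expresses Pomc. Pou4f1, a POU homeodomain factor, stood at 0.23 and 0.28 at E11.5 and E13.5, with levels of 1.33 and 3.18 in cells that held it. Ebf2 was at 0.24, 0.36 and 0.34 in the first 3 libraries, and Lhx1, a LIM homeodomain factor, was ranked at E11.5, at 0.29. Meis2 at E11.5 was alike, with 1.58 in 318 cells and 16.1 in the rest.

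Sox14 changed sides. Cells with this factor of the Sox family had more Pomc in the 2 youngest libraries, 20.9 against 8.59 and 16.5 against 9.65. They had less in the later libraries, with 8.50 against 14.3, 4.25 against 10.6, 5.26 against 25.8 and 8.16 against 29.3. Otp, a homeodomain factor of neuroendocrine neurons, was near 0.5 at E11.5 (0.53) and stood at 0.31 at E17.5 and 0.28 at P12.

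The 8 genes by which the study names its neuronal clusters sorted likewise. Only Prdm12 was at 0.6 or higher in any library. Nr4a2 at E13.5 went with 3.14 against 16.4, and Otp at E15.5 with 5.67 against 15.6. Tac2, the neurokinin B precursor, went with 5.54 against 26.9 at P5 and 9.94 against 32.2 at P12. Dlx5 and Prdm13 were never found in 5% of neurons. At E15.5 the 88 cells with Dlx5 had a level of 1.79 and the 50 with Prdm13 a level of 3.85, with 13.54 and 13.2 in the cells without them. The clusters were named by the study with these same libraries, so this is no independent support.

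**Figure D5:**
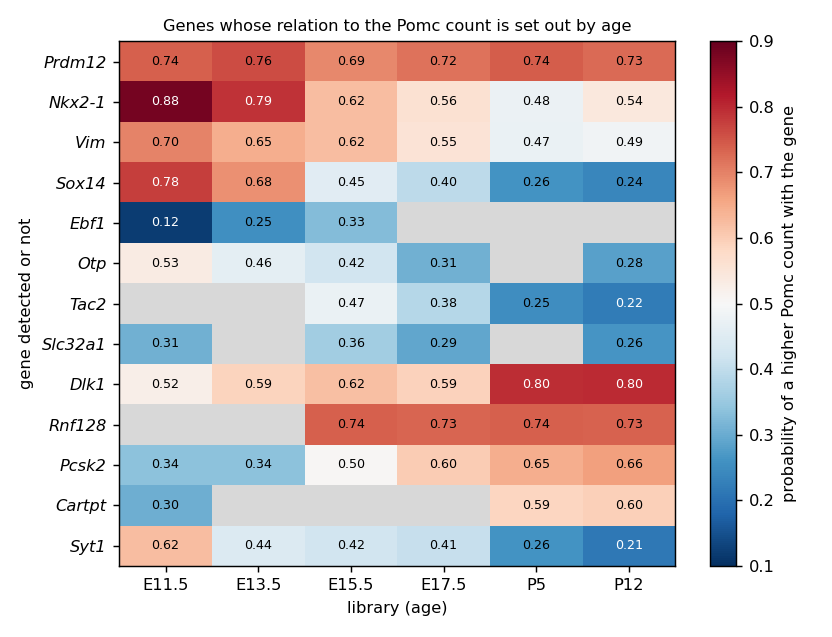
Probability (colour and printed value, 0.5 is no relation) of a higher thinned Pomc count in neurons with the gene than without it, by library (columns), for genes that the text sets out by age; grey cells are libraries where the gene was outside 5 to 95% detection. Pairs of neurons with equal counts add 0.5. Prdm12 stays at 0.69 to 0.76, and Nkx2-1 goes from 0.88 at E11.5 to 0.48 at P5 and 0.54 at P12. Sox14 goes from 0.78 to 0.24, Syt1 from 0.62 to 0.21, and Pcsk2 from 0.34 to 0.66.

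Among the genes that make and pack peptides, Pcsk2 stood out by its course. This prohormone convertase, which acts on the Pomc precursor, was at 0.34, 0.34, 0.50, 0.60, 0.65 and 0.66 by age. Cells with Pcsk2 had less Pomc at E13.5, 5.42 against 13.3, and more at P12, 41.7 against 22.2. Pcsk1, the other main convertase, reached 14.4% and 26.0% of neurons at P5 and P12, and its probability there was 0.53 and 0.52. Of the 16 members of the list, 12 to 14 were ranked in each library, of which 0 to 2 were high and 0 or 1 low. Over all ranked genes 0.661 to 3.29% were high and 0.573 to 4.31% low in a library. Medians were 0.47 to 0.54. Ptprn, a membrane protein of secretory granules, was at 0.50 to 0.58 up to P5 and at 0.63 at P12. Pcsk1n, the precursor of a convertase inhibitor, was ranked at E11.5, at 0.66. Vgf, a granule peptide precursor, was at 0.46 to 0.58 in 4 libraries, and Cadps2, which primes granules for release, was at 0.39 at E17.5 and 0.54 at P12. Carboxypeptidase E, Cpe, was detected in 74.3 to 86.8% of neurons and stayed within 0.47 to 0.55.

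The protein-folding list held 19 genes of the endoplasmic reticulum and its stress response, 16 or 17 of them ranked in each library. Pdia3 at E11.5 (0.62) and Ssr4 at P12 (0.60) were the only members at 0.6 or higher, none was at 0.4 or lower, and 0.661 to 3.29% of all genes were at 0.6 or higher in a library. Medians of the list by age were 0.52, 0.51, 0.51, 0.52, 0.49 and 0.51, beside 0.50, 0.49, 0.50, 0.50, 0.50 and 0.50 for all genes. Manf was at 0.51 to 0.57 in the 6 libraries, and Sdf2l1 at 0.53 to 0.57 in the 5 where it was ranked.

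Other neuropeptides were often on the low side. At 0.4 or lower, where 0.573 to 4.31% of all genes stood, were 3 of 3 ranked members, 2 of 3, 1 of 7, 3 of 6, 3 of 6 and 5 of 11 by age. Agrp, the melanocortin antagonist of the opposing arcuate neurons, went with 4.52 against 10.1 at E17.5 and 8.80 against 28.6 at P12. Sst, somatostatin, was at 0.31 to 0.40 in the 5 libraries where it was ranked, and Bdnf was at 0.29 at P5 and 0.25 at P12. Galanin, Gal, was the only member at 0.6 or higher, at P12, with 54.3 in 166 cells and 23.3 in the rest. Cartpt, which makes the CART peptide, was at 0.30 at E11.5, with 3.20 against 14.0. It was at 0.59 at P5 and 0.60 at P12, with 32.5 against 25.8 at P12.

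Receptors of energy balance could be ranked only in part, 3 of 20 at E11.5 and 14 of 20 at P12. Npy2r and Npy1r, receptors for neuropeptide Y, were at 0.71 and 0.67 at P5, and at 0.62 and 0.57 at P12. With Npy2r the P5 level was 37.7 in 251 cells, against 20.3 without. Esr1, the estrogen receptor alpha, was low, at 0.36 at P5 and 0.38 at P12, and Calcr, the calcitonin receptor, was at 0.38 at E17.5. Htr2c, a serotonin receptor, was ranked at P12, at 0.42. Lepr, the leptin receptor, was found in 0.382% of P5 and 1.61% of P12 neurons, too few for a value.

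Of the 8 transmitter genes, 2 to 6 were ranked in each library. At 0.4 or lower were 3 of 3, 1 of 2, 1 of 3, 2 of 3, 1 of 3 and 2 of 6 by age, and at 0.6 or higher 1 of 6 at P12. Of all ranked genes, 0.573 to 4.31% were at 0.4 or lower in a library, and 1.52% at 0.6 or higher at P12. Slc17a6, the vesicular glutamate transporter VGLUT2, was at 0.33 to 0.42 in all 6 libraries, with 13.4 against 24.7 at P5. Slc32a1, which loads GABA and glycine into vesicles, was at 0.26 to 0.36 in the 4 libraries where it was ranked. Gad2, a GABA-synthesizing enzyme, was at 0.36 at E11.5 but at 0.55 and 0.58 after birth. Gad1, its relative, was at 0.46, 0.40, 0.51 and 0.47 from E15.5 on, and Ddc, an enzyme of monoamine synthesis, at 0.46 at E13.5 and 0.53 at P12. Slc18a2, the vesicular monoamine transporter, was at 0.75 at P12, where 270 cells with it had a level of 48.7 against 21.6. It was below 5% detection in the other 5 libraries.

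Of the 11 listed progenitor and cell cycle genes, 1 to 3 were ranked in each library, and 2 of 3, 2 of 2 and 1 of 2 were at 0.6 or higher in the first 3. In those libraries 3.29%, 1.82% and 0.661% of all ranked genes were at 0.6 or higher. Vim, an intermediate filament of progenitors and glia, was at 0.70, 0.65 and 0.62 in the first 3 libraries, with 14.3 against 3.31 at E11.5, at 0.55 at E17.5, and at 0.47 and 0.49 after birth. Myc was at 0.63, 0.63 and 0.52 in the first 3 libraries. Nes, another intermediate filament of progenitors, was ranked at E11.5 and stood at 0.42, with 8.35 against 12.8. Cell cycle genes such as Mki67 gave no value. Of the 10 listed dissociation and immediate early genes, 2 to 8 were ranked and none of them was at 0.6 or higher. Ier2, at 0.35 at P5 and 0.38 at P12, was the only member at 0.4 or lower. At these ages 1.70% and 3.05% of all ranked genes were at 0.4 or lower. Npas4 was at 0.596 and 0.593 at these ages, Fos at 0.58 at both, and Junb at 0.58 and 0.55. Among all ranked genes 95% were below 0.557 at P5 and below 0.565 at P12, a limit that Junb did not reach at P12. Jun was at 0.42 to 0.49 in the 6 libraries, and Hspa1a at 0.44 and 0.46 after birth.

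Apart from the lists, Calb1, Cpne4, Tmeff2, Prox1, Thsd4 and Dlk1 had the highest means. Calb1, the calcium buffer calbindin, was found in 17.2 to 59.3% of neurons and went with 38.0 against 12.1 at P12. Dlk1, a noncanonical Notch ligand, was at 0.52 at E11.5 and 0.80 at both P5 and P12, where the levels were 38.3 against 9.34 and 41.3 against 12.3. Thsd4 went the opposite way, from 0.78 at E11.5 to 0.53 at P12. Rnf128, a ubiquitin ligase, passed 5% detection from E15.5 on and stayed at 0.73 to 0.74. Cd44, the hyaluronan receptor, was at 0.72 to 0.84 in the 4 libraries where it was ranked, and H2-Ab1, a class II histocompatibility chain, at 0.79 and 0.84 at E11.5 and E13.5, with 35.8 in 186 cells against 8.27 at E13.5.

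Several genes reached the top in few libraries. Chchd10, a mitochondrial protein, was at 0.86 at E11.5 and 0.50 at E17.5, and Tagln2, an actin-binding protein, at 0.82 at E13.5 and 0.60 at P5. Shisa8 and Etv1 were at 0.70 to 0.76 from E17.5 on, and Fam159b at 0.78 and 0.77 at P5 and P12. Prokr1, a prokineticin receptor, was ranked only at P12, at 0.74. Dpys at E15.5 and Kcnk12, a potassium channel subunit, were at 0.69, and Kcnk12 was at 0.47 by P12.

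At the low end stood Chst2, a sulfotransferase, the corepressor Tle1, the LIM-only protein Lmo4, Ntrk3, the receptor for neurotrophin 3, and the adhesion and guidance molecules Cadm1, Chl1 and Nrp2. Tmem163, Cxxc5 and Plppr1 completed the 10 lowest, with means of 0.35, 0.36 and 0.37. Chst2 went with 3.30 against 13.7 at E11.5 and 11.6 against 33.5 at P12. Syt1, a calcium sensor of synaptic vesicles, was at 0.62 at E11.5, below 0.5 from E13.5 on, and at 0.21 at P12, where cells with it had 11.2 against 40.3. Nrn1 was the lowest of all genes at E15.5, at 0.32, and stood at 0.22 at E11.5 and 0.27 at E13.5. Zic4 and Dmrtb1 followed it at E15.5, both at 0.32. Sox11, a factor of immature neurons, was at 0.30, 0.31 and 0.37 in the last 3 libraries. Tmem35a, Tac2 and Lhx5 were the lowest at P5, all at 0.25. At P12 Gm27199 and Slc35f4 stood at 0.21.

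Among neurons with at least 3 of the 6 factors at full depth (713 cells at E11.5 to 2489 at P5), 14 of 5507 genes (0.254%) had a mean at 0.6 or higher and 7 (0.127%) at 0.4 or lower. Rnf128 had the highest mean, 0.70 (0.60 to 0.77), followed by Cpne4 at 0.69, Tmeff2 at 0.66, Calb1 at 0.66 and Mmd2 at 0.62. Syt1 was lowest at 0.34, then Lmo4 at 0.35, Sox4 at 0.38, Trib2 at 0.39 and Ntm at 0.40. Cpne4, Tmeff2, Calb1 and Lmo4 were among the leading genes here and in the whole neuron class. These cells are a part of that class, so their shared leading genes are no independent support. The mean of Dlk1 was 0.60, and Chst2 had no mean because 4.91% of these cells held it at E11.5, under the limit of 5%.

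Cell-wide measures also moved with Pomc, given as rank correlations over the neuron class cells of a library, which share its preparation. The Pomc level here was uncorrected and at full depth, so in cells with 1 Pomc UMI it was set by depth alone. The share of ribosomal protein UMIs correlated with the Pomc level at 0.48 at E11.5 (n = 1312 cells) and 0.43 at E13.5 (n = 1629), but at -0.02 at E17.5 (n = 1136). The mitochondrial share reached 0.29 at P12 (n = 1283) and 0.24 at E13.5. Summed astrocyte markers per UMI reached 0.37 at P5 (n = 3428) and 0.20 at P12, and Aldoc, a metabolic enzyme on that list, was at 0.65 at P5. Summed microglia markers stayed between -0.03 and 0.03 in the 6 libraries. Summed neuronal markers, which include Syt1, stood at -0.34, -0.02, -0.16, 0.14, -0.03 and -0.27 by age. Their part in the values of single genes was not tested.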

How the data were processed

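Single cells were measured in 6 libraries, 1 for each age, and cells were not treated as replicates, so no test was made. Per the labels the submitters' processing notes name Cell Ranger 2.2.0 and 3.0.0, Seurat 3.0 and mm10. The authors deposited raw UMI counts per gene and cell after their own filters, one of which kept cells with at least 1 Pomc UMI. Depth ran from 9832065 UMIs in all at E17.5 to 81593741 at P5. No doublet caller was run and possible doublets were kept.

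A cell was put in a marker class where the summed UMIs of that class's marker genes were at least 5 and at least 2 times those of the next class. This rule was chosen after the marker sums were seen, and 195 cells stayed unassigned. Levels, mixtures and probabilities were computed in Python 3.11.15 with numpy 2.4.6, scipy 1.17.1 and pandas 2.3.3, thinned with a fixed seed and tested on simulated data. Cells under 4000 UMIs were left out of thinned values, at most 61 neurons in any library. Exact Poisson and binomial intervals at 95%, and limits for a count of 0 (3 counts), cover counting error only.

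The gene, the lists and the genes shown were chosen with earlier results of these data known. Named were the 10 highest and 10 lowest mean probabilities, the 3 highest and 3 lowest others of each library, the 5 highest and 5 lowest in cells with the factors, and up to 4 members of each list farthest from 0.5. Further list members and the genes shown by age were chosen after their values were seen. The upstream sequence is from RefSeq. The alternatives tried were other depths, seeds, cell sets, detection limits, denominators and a rank correlation. Other list members are given by counts only.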

Additional observations from a re-analysis of the deposited data

Results flagged for a closer look

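At different ages, 3 genes stood on opposite sides of 0.5, and these differences between ages were not tested. Pcsk2 had its highest probability at P12, 0.663, and its lowest at E13.5, 0.335. Sox14 was at 0.776 at E11.5 and 0.238 at P12, and Syt1 at 0.624 at E11.5 and 0.214 at P12. In all, 39 of the 8764 genes ranked in at least 2 libraries were at 0.6 or higher in 1 library and at 0.4 or lower in another. Embryonic and postnatal libraries also differ in reagents, which cannot be told apart from age.

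The postnatal tables hold an entry named RFP that no comparison used. A UMI of it was found in 25 cells at P5 and 11 cells at P12. At P5 all 25 were in the neuron class (0.729% of 3428 cells, exact 95% interval 0.472 to 1.07%), and 15 of them (60%) were above 20 Pomc UMIs per 10000, against 36.7% of neurons without it. None of 382 microglia class cells held it, which allows a share of up to 0.785%. At P12 10 were among the 1283 neurons (0.779%), of which 4 (40%) were above 20, against 45.1% of neurons without it, and none was among 1874 microglia class cells, which allows up to 0.160%. The cells with a UMI were deeper, with a median of 30891 UMIs against 18821.5 at P5, and the part of depth was not tested.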

How the results depend on the processing

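No paired analysis was possible because each age has 1 library, so that no spread within an age can be had, and no comparison between ages was tested. Of 168 alternative values of the levels and counts, 79 stayed within the limits set and 89 moved. For each level below, the first value is that over all deposited cells.
At E11.5 (10.9) the level was 11.2 without correction, 10.8 thinned to 4000 UMIs, 12.5 in neurons, 12.6 in neurons without other markers, 11.2 without the 5% deepest cells and 12.5 in neurons with a mitochondrial share up to 7%. At E13.5 (9.79) the same settings gave 10.3, 9.96, 10.75, 10.6, 9.31 and 10.8, and summed UMIs over summed depth 12.0. At E15.5 (12.0) summing gave 13.1, no correction 12.5, neurons 12.7, neurons without other markers 12.4, leaving out the deepest cells 11.535 and the mitochondrial limit 12.5. At E17.5 (8.58) summing gave 9.08, no correction 9.17 and the mitochondrial limit 8.78. At P5 (19.2) they were 19.1 with Pomc in the denominator, 23.4 summed, 19.4 uncorrected, 21.5 in neurons, 20.9 in neurons without other markers, 19.0 without the deepest cells and 21.8 with the mitochondrial limit. At P12 (11.49) they were 11.4, 17.6, 11.9, 27.4, 26.5, 10.9 and 23.7 in that order, and 11.3 thinned.
The share above 20 was 24.8% at E11.5, 36.9% at P5 and 45.1% at P12 in neurons, and 16.1% over all P12 cells without the deepest. Without cells of 10 or more Pomc UMIs, VLMC class levels were 0.185 at E13.5 and 0.290 at E15.5, and microglia class levels 0.365 at E15.5 (n = 17 cells), 0.557 at P5 and 1.15 at P12. Without the deepest cells the microglia class was at 1.07 at E15.5 and 1.16 at P5.
Counts of genes at 0.6 or higher or at 0.4 or lower, in order of age from E11.5 to P12, were 545, 314, 93, 95, 240 and 378. They were 289, 174, 38, 45, 119 and 198 at 2000 UMIs, and 912, 600, 242, 301, 378 and 597 at 8000. Without thinning they were 1671, 806, 369, 199, 1290 and 1000, with genes in at least 1% of cells 1483, 917, 498, 684, 642 and 1118, and by rank correlation 194, 117, 20, 16, 74 and 106. With at least 2 Pomc UMIs E11.5 had 302 and E17.5 198. All deposited cells gave 561 at P5 and 1918 at P12, and neurons without other markers 602 at P12. The count of means over libraries, 43, was 19 at 2000 UMIs, 99 at 8000, 142 without thinning, 159 with the 1% limit, 19 by rank correlation and 208 in the 2 postnatal libraries. Leaving out each library in turn gave 44 to 63. Of the 26 high and 17 low genes, 24 and 13 were shared with another seed, 14 and 4 with 2000 UMIs, 14 and 4 with the rank correlation, 15 and 12 with at least 2 Pomc UMIs, and 23 and 6 with all deposited cells.
Of 1379 values of 79 named genes, 1220 stayed, 158 moved and 1 changed sides: the mean of Gal was 0.489 with the 1% limit. The mitochondrial limit, the cuts on Pomc UMIs and the alternatives for shares and classes were chosen after seeing the data. The cause of these shifts was not tested. At E17.5 1 UMI in the shallowest group of neurons is worth 2.02 per 10000, so lower levels cannot be resolved there.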
